A study of Mus musculus with 24 samples.

Results

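Runx3 and 9 other transcription factor genes, grouped as lymphocyte effector factors, were followed across 24 mouse tumours: Runx1, Runx2, Runx3, Tbx21, Eomes, Tcf7, Id2, Batf, Prdm1 and Nr4a2. The set name does not say which cells held each transcript. They were taken by symbol from a table of 55414 genes, 52081 of which had a symbol. All 10 passed the filter on low counts that left 16029 genes for testing. The set was selected on the level of Runx3, which had been higher under anti-PD-1 alone than under the control antibody, so the comparison of anti-PD-1 with its control is described here without a test for every member.

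The tumours were of D4M, a mouse melanoma line, grown in wild-type C57BL/6 mice, and total RNA of whole tumour tissue was sequenced. There were 4 groups of 6 tumours, all given an antibody by intraperitoneal injection. The IgG2a group received a control antibody and the PD-1 group an antibody against PD-1, an inhibitory receptor of T cells. The BRQ+IgG2a and BRQ+PD-1 groups received the same antibodies together with BRQ (brequinar), an inhibitor of dihydroorotate dehydrogenase in pyrimidine synthesis. The series was designed to look at brequinar combined with anti-PD-1 in the tumour environment. No source used here gives the dose, the schedule, the time of collection or the age and sex of the mice. The labels call the samples biological replicates without naming an animal for each, so p-values measure the spread between these samples.

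Runx proteins bind DNA through the runt domain together with their partner CBFβ. Runx3 is known for silencing Cd4 in CD8 T cells and for driving cytotoxic and tissue-resident programmes in CD8 T cells, natural killer (NK) cells and innate lymphoid cells. Runx1 acts in blood stem cells and early T cells, and Runx2 is the master factor of bone formation. T-bet (encoded by Tbx21) and Eomes are T-box factors that switch on interferon gamma and cytotoxic granule genes. TCF-1 (encoded by Tcf7) keeps T cells in a stem-like or memory state and is the WNT pathway's DNA-binding partner. Id2 blocks E proteins and is needed by effector T cells, NK cells and innate lymphoid cells. Batf is an AP-1 factor of effector and exhausted T cells, Blimp-1 (encoded by Prdm1) represses memory genes in terminal effector cells, and Nr4a2 is a nuclear receptor induced by antigen receptor signals. Several of the 10 are also used outside lymphocytes.

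Runx genes have a distal and a proximal promoter, and Runx proteins bind motifs with the letters TGTGGT or TGCGGT. The 250 bases before each annotated start were searched for these letters on both strands, where they read ACCACA or ACCGCA on the other strand. RefSeq on build GRCm38.p6 gave 13 start windows for the 10 genes, and 3 of the 13 held a match, against 18.59% of 32851 windows of all genes. The motifs were counted wherever they occurred, and overlapping matches were allowed. The start windows of Runx3, and of Batf as the other member with a pair of matches, are shown 5′ to 3′ on the gene's strand with matches in capitals. The distal Runx3 window lies at chr4:135120395-135120644 on the plus strand, the proximal one at chr4:135152295-135152544 on the plus strand, and the Batf window at chr12:85686470-85686719 on the plus strand.
Runx3 distal: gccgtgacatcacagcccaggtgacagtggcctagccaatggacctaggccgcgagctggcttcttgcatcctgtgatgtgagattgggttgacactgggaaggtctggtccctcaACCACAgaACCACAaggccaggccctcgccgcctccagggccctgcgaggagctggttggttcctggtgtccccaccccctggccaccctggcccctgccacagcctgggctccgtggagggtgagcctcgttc
Runx3 proximal: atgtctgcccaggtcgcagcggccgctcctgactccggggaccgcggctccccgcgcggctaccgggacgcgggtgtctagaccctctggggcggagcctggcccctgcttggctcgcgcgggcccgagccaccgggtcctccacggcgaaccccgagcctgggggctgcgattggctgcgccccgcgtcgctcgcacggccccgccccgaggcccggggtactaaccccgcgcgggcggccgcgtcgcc
Batf: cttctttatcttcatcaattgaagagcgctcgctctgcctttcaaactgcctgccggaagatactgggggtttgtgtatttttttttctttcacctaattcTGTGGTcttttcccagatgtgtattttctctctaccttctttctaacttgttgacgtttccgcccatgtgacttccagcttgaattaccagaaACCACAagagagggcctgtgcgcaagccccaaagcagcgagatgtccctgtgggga

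The distal Runx3 window held 2 matches, which began 134 and 126 bases before the start and so lay 8 bases apart. A pair or more of matches was found in 2.01% of all windows. The proximal Runx3 window held none; it was 78.8% G and C with 38 CpG dinucleotides, against 65.2% and 8 in the distal window. In Batf the 2 matches began 149 and 56 bases before the start, and Runx2 held 1, at 80 bases. These are matches of letters in RefSeq sequence; binding was not measured.

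Library totals were 19106205 to 34282319 counts. Levels are CPM, read counts relative to library size, scaled by the trimmed mean of M-values (TMM). In 4 tumours skeletal muscle RNA was abundant: Acta1, the skeletal muscle actin, stood at 4070 to 14990 CPM in IgG2a replicates 2 and 3, PD-1 replicate 6 and BRQ+IgG2a replicate 4. In the other 20 it was at most 425 CPM. Pigment genes of melanocytes were at or near 0: Tyr and Dct had no count in any of the 24 libraries, Tyrp1 none in 23 and Mlana none in 19. Other genes on the same list of melanoma and neural crest markers differed widely. The receptor kinase Axl was at 618 to 1019 CPM, Sox9 at 91.5 to 255, Mitf at 11.4 to 52.0 and Kit at 7.93 to 26.2. Sox10, Ngfr, Pmel, S100b and Erbb3 were at most 4.41 CPM in any library, and Sox10 had no count in 9. All 20 T cell markers listed had counts in every library. In bulk tumour RNA, fewer cells of a type and less RNA per cell cannot be told apart.

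Per kilobase of exon, where levels of different genes can be compared, Id2 led with a mean of 17.0 CPM per kb over the 24 tumours (SD 4.95). Tcf7 followed at 15.8 (SD 3.75), then Runx1 at 8.91 (SD 1.41) and Runx2 at 6.54 (SD 1.47). Runx3 at 4.86 (SD 1.02), Nr4a2 at 4.78 (SD 3.22) and Prdm1 at 3.84 (SD 1.48) lay within each other's spread. Batf at 1.56 (SD 0.772), Tbx21 at 0.595 (SD 0.469) and Eomes at 0.445 (SD 0.233) were the lowest, and the last pair did not differ beyond their spread. Counts behind the lowest members ran from 6 to 126 for Tbx21 and from 10 to 96 for Eomes, so single-tumour values of those genes rest on few reads.

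Runx3 was lowest in the control tumours and higher in each of the 3 treated groups. In IgG2a tumours it ranged from 15.4 to 19.8 CPM with a median of 17.6, and under PD-1 from 23.0 to 30.3 with a median of 26.9. Under BRQ+IgG2a it ranged from 22.5 to 34.3 with a median of 25.8, and under BRQ+PD-1 from 21.7 to 32.4 with a median of 25.1. Every treated tumour lay above every control tumour, the closest being BRQ+PD-1 replicate 1 at 21.7 against IgG2a replicate 6 at 19.8. Means were 17.6 ± 1.39 CPM in IgG2a, 26.9 ± 2.42 under PD-1, 27.2 ± 4.95 under BRQ+IgG2a and 25.6 ± 3.59 in BRQ+PD-1 (SD, n = 6 each).

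**Figure D1:**
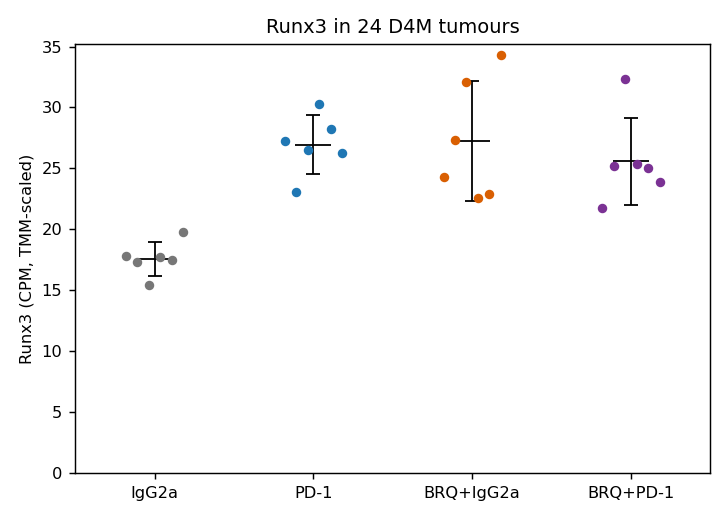
Runx3 in CPM (vertical axis, from 0) for the 4 treatment groups, with 1 point per tumour and black bars for the mean ± SD of 6 tumours. The 6 IgG2a tumours sit between 15.4 and 19.8 CPM, below all 18 treated tumours, which start at 21.7.

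The fitted log2 fold change of Runx3 from IgG2a was 0.62 ± 0.11 (SE) under PD-1, 0.63 ± 0.11 under BRQ+IgG2a and 0.54 ± 0.11 under BRQ+PD-1. These 3 comparisons share the IgG2a tumours, and the first chose the gene, so they are given side by side as a description. Under PD-1 alone, 0.0187% of the 16029 genes tested were higher by edgeR's quasi-likelihood test at an adjusted p under 0.05, which is 3 genes. This share is background and no test of Runx3, which was chosen on this comparison. Across all genes tested, 0.0374% had all 6 IgG2a tumours below all 18 treated ones. These were 6 genes: Runx3, Cybb (the phagocyte oxidase subunit), Cd300a (an inhibitory receptor of myeloid and NK cells), Cyfip2 (an actin regulator), Fam49a and Gm37274. They were named after their values were seen. The share of 0.0374% is likewise no test of Runx3, because the PD-1 tumours in it are part of the difference that chose the gene.

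Between the brequinar groups, whose 12 tumours played no part in choosing the gene, Runx3 did not pass the test. Its log2 difference of BRQ+PD-1 from BRQ+IgG2a was -0.09 ± 0.11, with an adjusted p of 0.809 and a 95% interval from -0.31 to 0.13. Thus anti-PD-1 came with a fitted Runx3 difference of 0.62 without brequinar and -0.09 with it. The interaction, as a description, was -0.71 ± 0.15. Against PD-1 alone, BRQ+PD-1 stood at -0.07 ± 0.11.

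Averaged over both antibodies, Runx3 rose with brequinar by 0.28 ± 0.08 (adjusted p = 0.0173). This main effect weights the IgG2a and PD-1 tumours equally, so the difference between them that chose the gene does not enter it, although their tumours and the estimate of the spread are shared with that choice. This average combines a difference of 0.63 on the control antibody with one of -0.07 on anti-PD-1. The call ended with the T cell marker score as a covariate (0.15 ± 0.09, adjusted p = 0.201), with the macrophage, monocyte and dendritic cell score as a covariate (0.22 ± 0.08, adjusted p = 0.0564) and with no expression filter (0.26 ± 0.08, adjusted p = 0.0556). With the T cell score as a covariate the described differences from IgG2a were 0.53 ± 0.10 under PD-1, 0.43 ± 0.13 under BRQ+IgG2a and 0.40 ± 0.11 under BRQ+PD-1.

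Summed T cell markers overlapped between all 4 groups. Their level over 20 genes ran from 30.2 to 106 CPM in IgG2a, from 49.5 to 189 under PD-1, from 48.9 to 273 under BRQ+IgG2a and from 41.8 to 158 in BRQ+PD-1, with none of the 20 at 0 in any library. By edgeR's test 13 of the 20 were higher in BRQ+IgG2a against IgG2a and 3 in BRQ+PD-1 against IgG2a, and 0 passed in the other 3 pairwise comparisons. Of all genes tested, 2.96% were higher in the first of these comparisons and 2.48% in the second. The order of Runx3 and of T cell content differed between some tumours of different groups. Runx3 was chosen for being lower in IgG2a than under PD-1, so the tumours named next are a description, and the part of T cell content was not tested. IgG2a replicate 2, a muscle-rich library, had the highest T cell score of its group, 1.90, and a Runx3 level of 17.4 CPM, while PD-1 replicate 2 and BRQ+IgG2a replicate 5 had scores of 0.58 and 0.79 and Runx3 levels of 23.0 and 22.9 CPM. With group means removed, Runx3 correlated with the T cell score at Pearson r = 0.47 (Spearman rho = 0.35) over the 24 tumours, and at r = 0.66 over the 20 without abundant muscle RNA. The value over 24 tumours stood at percentile 80.2 among tested genes with a symbol, predicted genes left out. Over the 24 tumours r was 0.45 to NK cell markers, 0.28 to dendritic cell markers, 0.25 to macrophage and monocyte markers and -0.25 to neutrophil markers. Tumours share a scaling, so correlations are descriptions and carry no p.

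**Figure D2:**
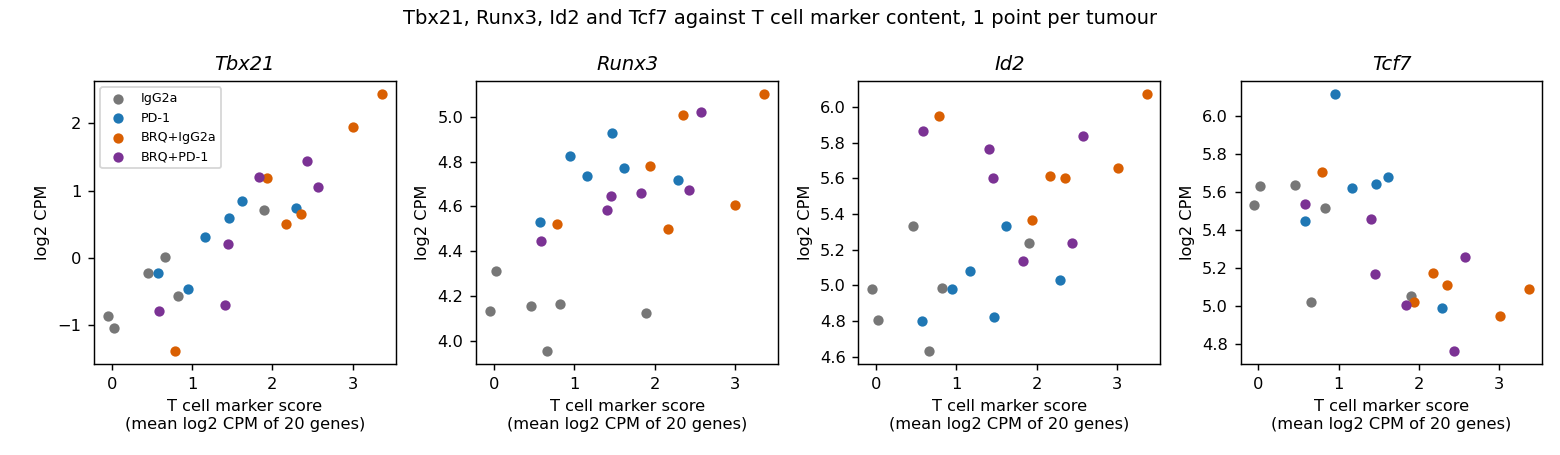
Log2 CPM of Tbx21, Runx3, Id2 and Tcf7 (vertical axes, scales differ) against the mean log2 CPM of 20 T cell markers (horizontal axis), 1 point per tumour and coloured by group. Tbx21 climbs with the score across groups, the 6 grey IgG2a points lie below all others for Runx3 at any score, and Tcf7 is lower where the score is higher.

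Runx1 and Runx2 did not pass the test in any comparison. Runx1 ranged from 75.8 to 145 CPM over all tumours, with group means of 108 ± 18.7 in IgG2a, 108 ± 11.7 under PD-1, 104 ± 22.05 under BRQ+IgG2a and 109 ± 18.02 in BRQ+PD-1 (SD, n = 6 each). The brequinar main effect on Runx1 had a 95% interval from -0.22 to 0.17 on the log2 scale. Runx2 had group means of 54.3 ± 12.5, 55.7 ± 8.75, 57.9 ± 16.4 and 63.3 ± 14.7 CPM in the same order (SD, n = 6 each), all overlapping. Its brequinar main effect was 0.14 ± 0.13 (adjusted p = 0.505), and 0.40 ± 0.12 (adjusted p = 0.0179) with the T cell score as a covariate. That covariate fit called 4076 genes in the main effect, against 2001 without the score.

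Of 13 tested genes for Runx partners and co-repressors, none passed the test in BRQ+IgG2a against IgG2a, with a median log2 difference of 0.06 against -0.01 over all genes. Cbfb, the shared partner subunit, stood at 157 CPM in IgG2a and 148 CPM in BRQ+IgG2a (adjusted p = 0.634). Crebbp, a histone acetyltransferase, was the 1 gene of the 13 to rise in BRQ+PD-1 against PD-1, by 0.51 ± 0.13 (adjusted p = 0.0246), and in the brequinar main effect, by 0.35 ± 0.09 (adjusted p = 0.0151). Of all genes tested, 2.38% and 6.91% rose in these comparisons.

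Id2 rose with brequinar under both antibodies. It ranged from 24.7 to 40.3 CPM in IgG2a (median 31.5) and from 27.8 to 40.2 under PD-1 (median 32.01). Under BRQ+IgG2a it ranged from 41.1 to 67.3 (median 49.6) and under BRQ+PD-1 from 35.1 to 58.3 (median 51.4). All 6 BRQ+IgG2a tumours lay above all 6 IgG2a tumours, a separation that 1.29% of genes tested showed in that direction. Within BRQ+PD-1, replicates 2 and 4 at 35.1 and 37.6 CPM fell within the range of the groups without brequinar.

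The log2 difference of Id2 was 0.72 ± 0.15 in BRQ+IgG2a against IgG2a (adjusted p = 0.00581, 1.64-fold) and 0.58 ± 0.14 in BRQ+PD-1 against PD-1 (adjusted p = 0.0221). It was 0.59 ± 0.14 in BRQ+PD-1 against IgG2a (adjusted p = 0.0256). The main effect was 0.65 ± 0.10 (adjusted p = 0.000355), and anti-PD-1 on top of brequinar gave -0.13 ± 0.14 (adjusted p = 0.805, 95% interval -0.43 to 0.17). The interaction was -0.13 ± 0.20 (adjusted p = 0.920). Under PD-1 alone the described difference was 0.00 ± 0.14.

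Id2 did not follow T cell content within groups (r = 0.07, rho = 0.15). With the T cell score as a covariate its main effect was 0.63 ± 0.12 (adjusted p = 0.00140), and without the 4 muscle-rich libraries 0.64 ± 0.11 (adjusted p = 0.00143). The call in BRQ+PD-1 against IgG2a was less firm: it held in 7 of 12 fits that left out 1 tumour, and was lost without IgG2a replicates 1 or 3 or BRQ+PD-1 replicates 1, 3 or 6, at adjusted p up to 0.0757. It was also lost without the muscle-rich libraries (0.55 ± 0.16, adjusted p = 0.0823) and with only those 2 groups fitted (0.58 ± 0.15, adjusted p = 0.0592). The call against PD-1 was lost without PD-1 replicate 2 or BRQ+PD-1 replicates 1 or 3, at adjusted p up to 0.0586.

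**Figure D3:**
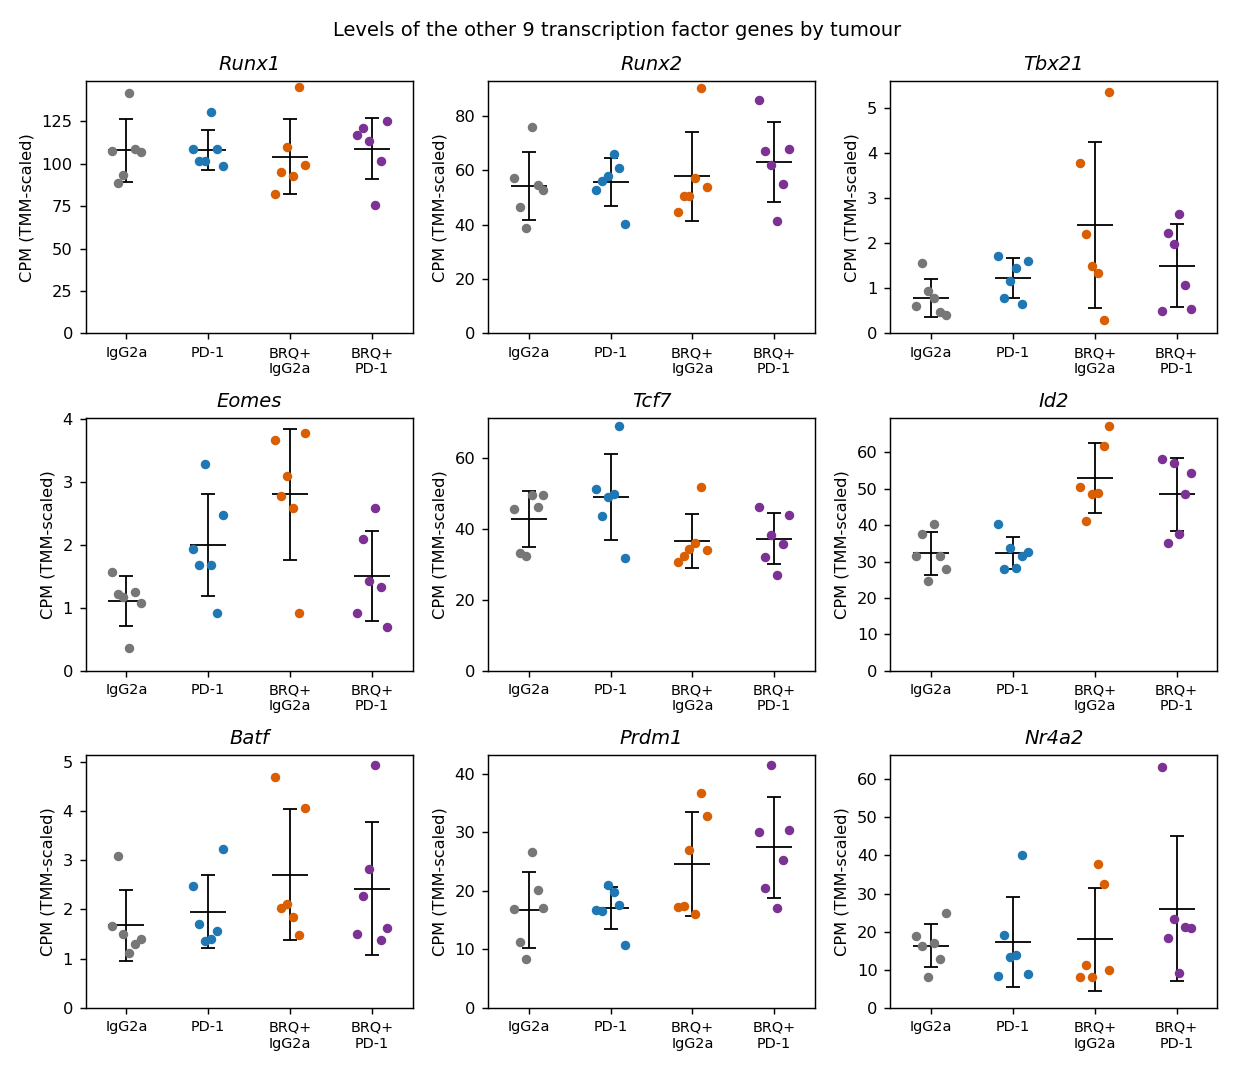
CPM (vertical axes from 0, scales differ) of the other 9 genes in the 4 groups, with 1 point per tumour and black bars for the mean ± SD of 6 tumours. Id2 in BRQ+IgG2a starts at 41.1 CPM, above the IgG2a maximum of 40.3, while the groups of the other 8 genes overlap.

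The T-box genes Tbx21 and Eomes were highest in the BRQ+IgG2a group, with wide spread. Tbx21 ranged from 0.407 to 1.56 CPM in IgG2a (median 0.692), from 0.649 to 1.73 under PD-1 (median 1.30), from 0.305 to 5.34 under BRQ+IgG2a (median 1.85) and from 0.502 to 2.65 in BRQ+PD-1 (median 1.53). The BRQ+IgG2a group held both the highest tumour, replicate 6, and the lowest, replicate 5. Its difference from IgG2a was 1.60 ± 0.51 (adjusted p = 0.0937), which did not pass the test; the main effect was 0.95 ± 0.36 (adjusted p = 0.0840).

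DESeq2 called Tbx21 in BRQ+IgG2a against IgG2a (1.61 ± 0.51, adjusted p = 0.0316), as did the fit without the muscle-rich libraries (2.198 ± 0.62, adjusted p = 0.0494). With the T cell score as a covariate the difference was -0.53 ± 0.38 (adjusted p = 0.387), of the opposite sign, and with the myeloid score 0.13 ± 0.41 (adjusted p = 0.871).

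Eomes ranged from 0.356 to 1.57 CPM in IgG2a (median 1.19), from 0.917 to 3.29 under PD-1 (median 1.80), from 0.914 to 3.77 under BRQ+IgG2a (median 2.93) and from 0.692 to 2.58 in BRQ+PD-1 (median 1.37). In BRQ+IgG2a, 5 of 6 tumours lay above every IgG2a tumour, and replicate 5 at 0.914 did not. Eomes rose in BRQ+IgG2a against IgG2a by 1.34 ± 0.37 (adjusted p = 0.0440). The call held in 2 of 12 fits that left out 1 tumour, with adjusted p from 0.00895 to 0.128. It was lost without IgG2a replicates 2, 3, 4, 5 or 6 and without BRQ+IgG2a replicates 1, 2, 3, 4 or 6. It was also lost without the muscle-rich libraries (1.41 ± 0.47, adjusted p = 0.107), with no expression filter (1.32 ± 0.36, adjusted p = 0.0691) and with only the groups compared (1.33 ± 0.36, adjusted p = 0.0750). With the T cell score as a covariate the difference was 0.40 ± 0.45 (adjusted p = 0.596), and with the myeloid score 0.43 ± 0.30 (adjusted p = 0.388).

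Adding anti-PD-1 to brequinar gave Eomes a difference of -0.89 ± 0.37 (adjusted p = 0.665) and the interaction was -1.73 ± 0.52 (adjusted p = 0.461); neither passed the test. limma voom with quality weights called both, at -1.32 ± 0.32 (adjusted p = 0.0271) and -2.14 ± 0.46 (adjusted p = 0.0365).

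Batf had group means of 1.67 ± 0.713 CPM in IgG2a, 1.95 ± 0.745 under PD-1, 2.70 ± 1.33 under BRQ+IgG2a and 2.42 ± 1.35 in BRQ+PD-1 (SD, n = 6 each), with counts from 27 to 134. Its main effect was 0.50 ± 0.25 (adjusted p = 0.190), and -0.24 ± 0.18 (adjusted p = 0.353) with the T cell score as a covariate.

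Prdm1 was higher with brequinar on average. It ranged from 8.26 to 26.6 CPM in IgG2a (median 16.9), from 10.8 to 21.0 under PD-1 (median 17.1), from 16.1 to 36.6 under BRQ+IgG2a (median 22.2) and from 17.1 to 41.5 in BRQ+PD-1 (median 27.6). The groups overlapped. Prdm1 rose in the main effect by 0.62 ± 0.19 (adjusted p = 0.0315) and passed in neither single comparison with brequinar, at 0.55 ± 0.26 (adjusted p = 0.329) against IgG2a and 0.69 ± 0.26 (adjusted p = 0.132) against PD-1.

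The main effect on Prdm1 held in 15 of 24 fits that left out 1 tumour. It was lost without IgG2a replicates 2 or 3, PD-1 replicates 2 or 6, BRQ+IgG2a replicates 3, 5 or 6, or BRQ+PD-1 replicates 3 or 6, at adjusted p up to 0.0665. Prdm1 was lower where muscle RNA was higher, with r = -0.84 (rho = -0.82) to the 16 muscle markers over 24 tumours and r = -0.68 over the 20 without abundant muscle. Summed muscle markers reached 49805 CPM in IgG2a and 841 CPM in BRQ+PD-1. Without the muscle-rich libraries the main effect was 0.47 ± 0.16 (adjusted p = 0.0742), and with no expression filter 0.60 ± 0.19 (adjusted p = 0.0779). With the T cell score as a covariate it was 0.81 ± 0.23 (adjusted p = 0.0144).

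Tcf7 had group means of 42.8 ± 7.90 CPM in IgG2a, 49.2 ± 12.2 under PD-1, 36.6 ± 7.75 under BRQ+IgG2a and 37.3 ± 7.22 in BRQ+PD-1 (SD, n = 6 each), and the groups overlapped. Its main effect was -0.31 ± 0.12 (adjusted p = 0.0832), which did not pass; without the muscle-rich libraries it was -0.45 ± 0.11 (adjusted p = 0.0110), and with the T cell score as a covariate -0.04 ± 0.11 (adjusted p = 0.837). Within groups Tcf7 was lower where T cell markers were higher (r = -0.68, rho = -0.60).

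Nr4a2, with a span of 7.94-fold over the 24 tumours, varied more than the other members with a mean above 10 CPM. It ranged from 7.98 to 24.9 CPM in IgG2a, 8.43 to 40.02 under PD-1, 8.07 to 37.8 under BRQ+IgG2a and 9.05 to 63.4 in BRQ+PD-1, with medians of 16.6, 13.7, 10.6 and 21.0. The groups overlapped, and the main effect was 0.36 ± 0.34 (adjusted p = 0.516). With the T cell score as a covariate it was 0.93 ± 0.33 (adjusted p = 0.0436), and the difference of BRQ+PD-1 from IgG2a was 1.21 ± 0.43 (adjusted p = 0.0434), both past the threshold. That covariate fit called 4076 and 4148 genes in these comparisons, against 2001 and 627 without the score.

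**Figure D4:**
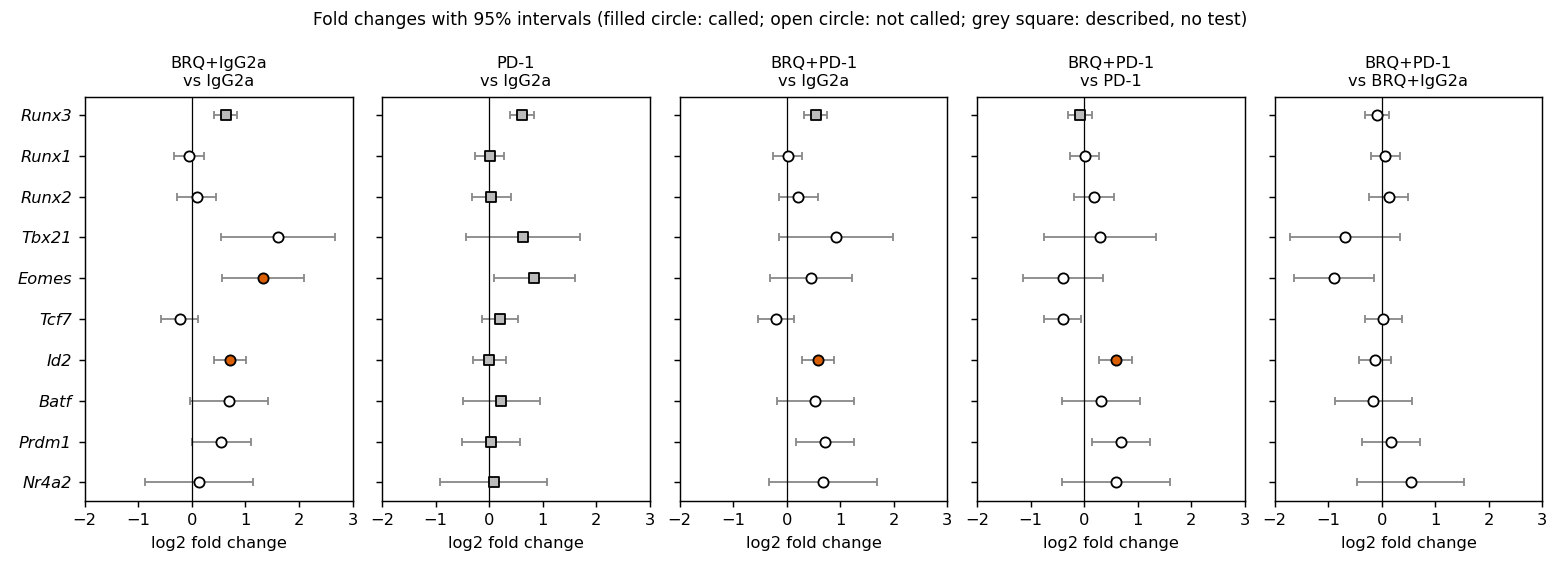
Log2 fold changes (horizontal axes) of the 10 genes in the 5 pairwise comparisons, with 95% intervals; filled circles passed edgeR's test at an adjusted p under 0.05, open circles did not, and grey squares are described without a test because they use tumours that chose the genes. Id2 is filled in the 3 comparisons of a brequinar group with a group without it, and Eomes in BRQ+IgG2a against IgG2a at 1.34.

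Counted together, leaving Runx3 out where the difference that chose it enters the comparison, 2 of 9 members (Eomes and Id2) rose in BRQ+IgG2a against IgG2a, where 2.96% of genes tested rose. For BRQ+PD-1 against IgG2a, 1 of 9 (Id2) rose against 2.48% of genes, and for BRQ+PD-1 against PD-1, 1 of 9 (Id2) against 2.38%. In the main effect 3 of 10 (Runx3, Id2 and Prdm1) rose against 6.91%, or 2 of 9 without Runx3. None of the members fell in these 4. Between the brequinar groups, 0 of 10 members and 0% of all genes passed edgeR's test, with 1168 genes at an unadjusted p under 0.05; Eomes was the 1 member among them, and DESeq2 called 4 genes and limma voom 612. In the interaction it was 0 of 9 members and 0% of all genes, with 1222 genes at an unadjusted p under 0.05; Eomes was again the 1 of the 9, and DESeq2 called 13 genes and limma voom 268. The members' median log2 difference was 0.55, 0.53, 0.29 and 0.42 in the first 4 comparisons, where the median of all genes was -0.01, 0.01, 0.01 and 0.01. With so few members these counts describe the set and test nothing about it.

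The members split by which tumours held them, a pattern noticed in the values. With group means removed, Tbx21, Eomes and Batf correlated with each other over the 24 tumours at r from 0.59 to 0.76. Runx1, Runx2, Tcf7 and Prdm1 correlated with each other at r from 0.70 to 0.87. Between these sets r ran from -0.37 (Tbx21 with Prdm1) to -0.73 (Tbx21 with Tcf7). Nr4a2 correlated with Tcf7 at 0.72 and Runx2 at 0.71, and with Runx1 at 0.42 and Prdm1 at 0.34. Tbx21 and Batf followed the T cell score at r = 0.89 and 0.84 and the NK cell score at 0.88 and 0.85. They also followed dendritic cell markers at 0.81 and 0.74 and macrophage and monocyte markers at 0.77 and 0.75. Eomes followed dendritic cell markers at 0.81, macrophage and monocyte markers at 0.71, NK cell markers at 0.68 and T cell markers at 0.58. With B and plasma cell markers r was 0.58 for Tbx21, 0.62 for Batf and 0.50 for Eomes. With neutrophil markers it was -0.22, -0.11 and -0.28. With melanoma and neural crest markers r was 0.50, 0.39 and 0.33 in the same order, and with fibroblast and osteoblast-type markers 0.49, 0.37 and 0.24. With muscle markers it was 0.35, 0.42 and 0.47, and with endothelial markers -0.13, -0.11 and -0.40. Tbx21, Batf and Eomes thus followed several lists, not all of leukocytes, and not T and NK cell markers alone. Runx3 stayed outside both sets, with its strongest correlation, 0.43, to Tbx21. Id2 and Prdm1 correlated at 0.62. To the T cell score r was -0.68 for Tcf7, -0.64 for Runx2, -0.60 for Nr4a2, -0.53 for Runx1 and -0.34 for Prdm1. In the same order it was -0.80, -0.75, -0.73, -0.63 and -0.48 to dendritic cell markers. To macrophage and monocyte markers it was -0.66, -0.69, -0.40, -0.71 and -0.60, and to muscle markers -0.75, -0.64, -0.26, -0.62 and -0.84. To endothelial and neutrophil markers r ran from -0.12 to 0.17. These genes thus did not run against T cell markers alone.

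The difference between the sets was visible in single tumours. BRQ+IgG2a replicate 5 had the lowest Tbx21 of all 24 tumours, 0.305 CPM, and the highest Runx2, 90.3, and Runx1, 145. IgG2a replicate 4 had the lowest Eomes of all, 0.356, with Runx1 at 142 and Runx2 at 76.1. BRQ+PD-1 replicate 4 had the highest Batf, 4.93, with the lowest Runx1, 75.8, and the lowest Tcf7, 27.1.

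**Figure D5:**
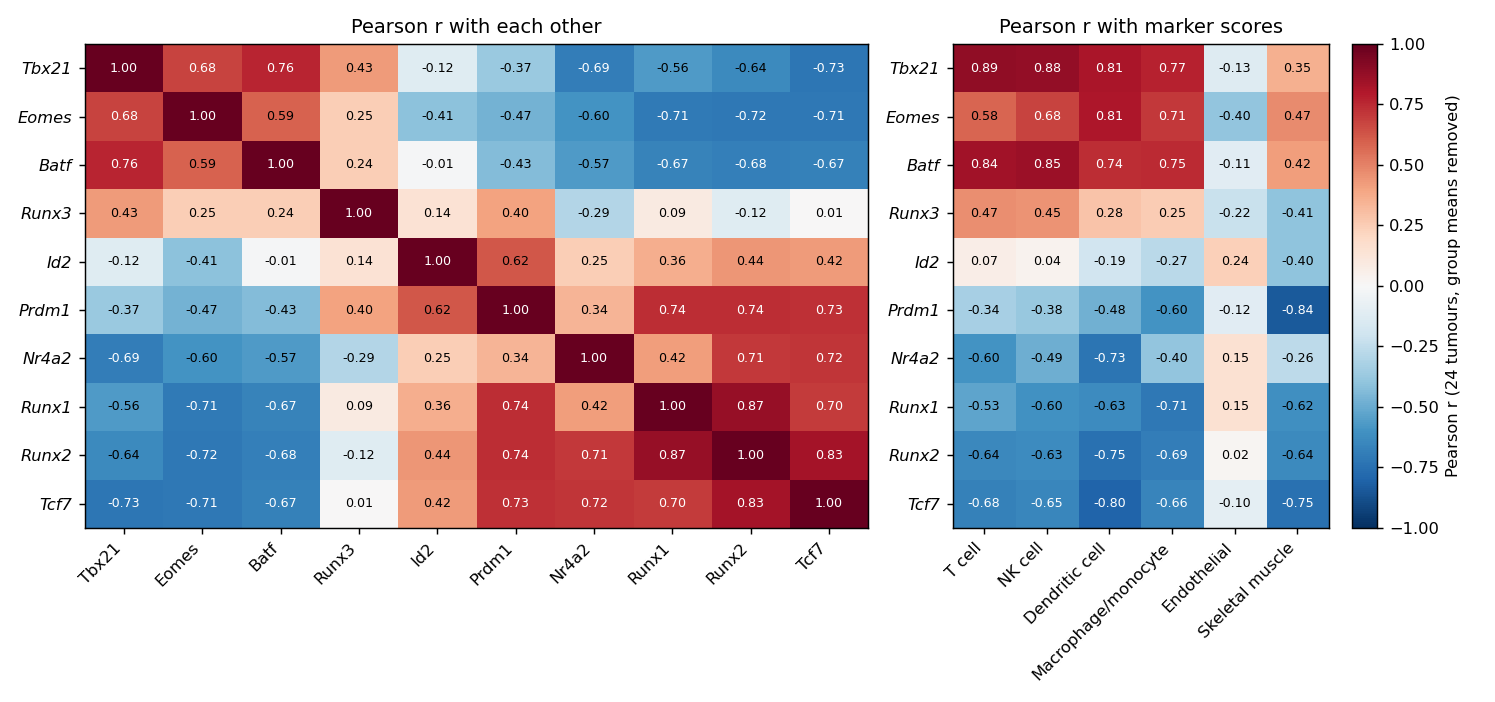
Pearson r over 24 tumours with group means removed, between the 10 genes (left) and between each gene and the mean log2 level of 6 cell marker lists (right); red is positive and blue negative. Tbx21, Eomes and Batf form a red block with r from 0.59 to 0.76, Runx1, Runx2, Tcf7 and Prdm1 are red to each other with r from 0.70 to 0.87, and between these sets r is blue, from -0.37 to -0.73.

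The genes most like each of 3 members were read from all tested genes by the same r. For Tbx21 these were Ciita (the master factor of MHC class II, r = 0.92), Itgal (the leukocyte integrin LFA-1, 0.92), Plbd1 (0.92), H2-DMa (a class II peptide editor, 0.90) and Gm2a (0.90). For Runx1 they were Tnc (0.91) and Fn1 (0.90), which encode the matrix proteins tenascin C and fibronectin, then Atg2b (0.88), Stam (0.88) and Ext1 (0.88). For Runx3 r was lower throughout: Rdh10 (a retinol dehydrogenase, 0.78), Tsku (0.77), Hexdc (0.76), Cebpa (a myeloid factor, 0.75) and Il16 (0.74). Their Spearman rho ran from 0.67 to 0.79, and without the muscle-rich libraries r ran from 0.71 to 0.81.

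Of 27 tested genes that Runx3, T-bet or Eomes are known to control, 15 rose in BRQ+IgG2a against IgG2a, with a median log2 difference of 1.46. Over all genes tested 2.96% rose, and the median was -0.01. Prf1, which encodes the pore-forming perforin, rose from 2.82 to 15.7 CPM (2.48 ± 0.37, adjusted p = 0.000506). Itga1, an integrin of tissue-resident T cells that other cells also carry, rose from 31.3 to 57.0 CPM (0.87 ± 0.16, adjusted p = 0.00280). Cxcr6, a chemokine receptor of resident T cells, rose from 1.90 to 9.43 CPM (2.31 ± 0.44, adjusted p = 0.00371).

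In the same comparison 13 of 20 T cell markers rose, with a median of 1.66, and 6 of 12 NK cell markers, with a median of 1.64, so the effector genes moved beside the markers of the cells that carry them. Of the 12 NK cell markers, Prf1 and Il18rap are also effector genes of the list above. That effector list also holds the CD8 genes Cd8a and Cd8b1, the macrophage list gene Cx3cr1 and the dendritic cell list gene Itgae. Without the muscle-rich libraries 15 of 27 effector genes, 17 of 20 T cell markers and 7 of 12 NK cell markers rose. These counts moved with single tumours. Leaving out 1 tumour of the groups compared gave 8 to 20 effector genes, the lowest without BRQ+IgG2a replicate 6 and the highest without BRQ+IgG2a replicate 5. For T cell markers it gave 4 to 18: 4 without IgG2a replicates 5 or 6 or BRQ+IgG2a replicate 6, 7 without IgG2a replicate 4 or BRQ+IgG2a replicate 1, 8 without IgG2a replicate 3, and 18 without IgG2a replicate 2 or BRQ+IgG2a replicate 5. For NK cell markers it gave 4 to 7. The part of cell content in the effector gene differences was not tested. For the combination against IgG2a, 5 of 27 effector genes, 3 of 20 T cell markers and 3 of 12 NK cell markers rose, against 2.48% of all genes. Without the muscle-rich libraries these were 11, 7 and 4. Leaving out 1 tumour gave 4 to 12 effector genes, 0 to 7 T cell markers and 1 to 5 NK cell markers, each highest without IgG2a replicate 2. T cell markers were at 0 without IgG2a replicates 1, 3, 4 or 5 or BRQ+PD-1 replicates 2 or 3, and at 1 without IgG2a replicate 6 or BRQ+PD-1 replicate 4. NK cell markers were at 1 without IgG2a replicates 1 or 3 or BRQ+PD-1 replicate 3. Against PD-1 alone, 2 of 27 effector genes rose, Itga1 by 1.53 ± 0.16 (adjusted p = 2.76e-05) and Itga4, another integrin, by 1.47 ± 0.26 (adjusted p = 0.00371), and 0 of 20 T cell markers and 0 of 12 NK cell markers passed. Of all genes tested 2.38% rose there. In the main effect 14 of 27 effector genes and 15 of 20 T cell markers rose, against 6.91% of all genes. Leaving out 1 tumour gave 13 to 18 effector genes and 9 (without IgG2a replicate 5) to 18 T cell markers.

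Among 33 other lymphocyte transcription factors tested, 1 rose in each of 3 comparisons, where 2.96%, 2.48% and 2.38% of all genes rose, so these shares lay near the background. In BRQ+IgG2a against IgG2a it was Tox, a factor of exhausted T cells, from 0.537 to 3.99 CPM (2.90 ± 0.69, adjusted p = 0.0188). For BRQ+PD-1 against IgG2a it was Zeb2, which works with T-bet in terminal effector cells and is also a mesenchymal factor (0.45 ± 0.12, adjusted p = 0.0403). For BRQ+PD-1 against PD-1 it was Stat5a, which acts downstream of interleukin-2 (0.51 ± 0.14, adjusted p = 0.0324). Leaving out 1 tumour gave 0 to 8 calls in BRQ+IgG2a against IgG2a, the lowest without IgG2a replicate 5 and the highest without BRQ+IgG2a replicate 5. It gave 0 to 1 in BRQ+PD-1 against IgG2a (0 without IgG2a replicates 1, 3, 5 or 6 or BRQ+PD-1 replicates 2 or 3) and against PD-1 (0 without PD-1 replicates 1, 2 or 6 or BRQ+PD-1 replicates 3, 5 or 6). In the main effect 6 of 33 rose against 6.91% of all genes and none fell, led by Zeb2 (0.36 ± 0.09, adjusted p = 0.00875), Tox (1.91 ± 0.47, adjusted p = 0.0103) and Stat5a (0.37 ± 0.10, adjusted p = 0.0132). Their median main effect was 0.28, against 0.01 over all genes; 12 of 34 tested rose without the muscle-rich libraries, and leaving out 1 tumour gave 4 to 11 calls.

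Reads of overlapping genes on the opposite strand could have been counted to 3 members if counting ignored strand, and no source used here states the strand setting. In the GENCODE M21 annotation Runx2os1 shares 5.87% of Runx2 exon bases and stood at 0.856 CPM, Gm33460 shares 2.84% of Eomes and stood at 0.0699 CPM, and Gm26626 shares 0.881% of Runx1 and stood at 0.157 CPM. The other 7 members share none.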

How the data were processed

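The 24 libraries were whole tumours in 4 groups of 6, grouped by title. The deposited table gives whole-number read counts per Ensembl gene, not normalized, made by the authors. HISAT2 2.2.1 and StringTie 2.2.1 are named, per the submitters' processing notes, with Trim Galore 0.6.7, FastQC 0.11.8 and MultiQC 1.11 and the build GRCm39. No source used here gives the counting program, the annotation or the strand setting. Deposited FPKM and TPM tables were not used.

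Symbols and exon lengths came from GENCODE M21 (GRCm38), so no gene coordinates on GRCm39 are printed. Counts were filtered with filterByExpr by group and fitted with edgeR 4.0.16 (R 4.3.3): TMM scaling, robust quasi-likelihood F tests, 1 model of all 24 libraries by group. P-values were adjusted by Benjamini-Hochberg over 16029 genes and called at 0.05; SE is |log2 fold change| / √F. Log2 CPM used a prior count of 2. The brequinar main effect is the mean of its differences under both antibodies, and the interaction is the difference of those differences.

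The members and the 14 gene lists were chosen with earlier results of these data known. Contrasts that use the IgG2a or PD-1 tumours singly are not tested for Runx3, nor PD-1 against IgG2a for any member. All members are named; of each list, up to 3 called genes with the smallest adjusted p, and for Runx3, Tbx21 and Runx1 the 5 genes of highest r. The test was checked on simulated data. No replicate pair agreed within sampling noise (60 pairs, 9.38 to 222 times that noise). Alternatives were RLE scaling, no filter, DESeq2 1.42.0, limma 3.58.1 voom with quality weights, a replicate block, only the groups compared, marker scores as covariates, leaving out the libraries with Acta1 at 1000 CPM or more, and leaving out each library. The same omissions were added for 4 gene lists after seeing the data.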

Additional observations from a re-analysis of the deposited data

Results flagged for a closer look

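In each of the 40 sets of 6 tumours (10 genes in 4 groups), the gap of the highest or lowest tumour to its neighbour was compared with the group's range. A gap share above 0.625 (Dixon's 95% value) was taken up; chance gives this in about 1 of 20 sets, and 7 of the 40 had it, each at the high end. Runx3 was 32.4 CPM in BRQ+PD-1 replicate 3, next to 25.4 (gap share 0.655). Runx1 was 130.5 CPM in PD-1 replicate 4, next to 108.7 (0.683). In BRQ+IgG2a replicate 5, Runx2 was 90.35 CPM, next to 57.3 (0.725), and Tcf7 was 52.0 CPM, next to 36.1 (0.749). Batf was 3.075 CPM in IgG2a replicate 2, next to 1.67 (0.713); that tumour also had the highest T cell marker score of its group, 1.90, and abundant muscle RNA. Nr4a2 was 40.02 CPM in PD-1 replicate 5, next to 19.2 (0.659), and 63.4 CPM in BRQ+PD-1 replicate 1, next to 23.4 (0.735). Genes that share a tumour are not independent.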

How the results depend on the processing

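No called member changed direction under any alternative. Of the single-gene results under alternatives, 1618 kept their side of the threshold or, where described, stayed within their spread. Of the rest, 42 lost a call, 29 gained one and 1 described value moved by more than its spread. Most results were not called in the main fit or only described, so they had no call to lose, and the 42 losses fell on the few called ones. Some results that were not called changed sign. With the T cell score the main effect went from 0.95 to -0.41 for Tbx21 and from 0.50 to -0.24 for Batf. The count of members called in BRQ+IgG2a against IgG2a (2) became 1 with no expression filter, with a replicate block, with the T cell score as covariate and with only the groups compared, 3 with DESeq2 and 4 with limma voom. For BRQ+PD-1 against IgG2a (1) it became 0 with a replicate block, without the muscle-rich libraries and with only the groups compared, 2 with limma voom, 3 with the macrophage, monocyte and dendritic cell score and 4 with the T cell score. For BRQ+PD-1 against PD-1 (1) it became 2 with the macrophage, monocyte and dendritic cell score and 3 with limma voom. Between the brequinar groups (0) and the interaction (0) it became 1 each with limma voom. In the main effect (3) it became 1 with no filter, 2 with a replicate block, 4 with the T cell score, without the muscle-rich libraries and with DESeq2, and 5 with limma voom. Leaving out 1 tumour gave 1 to 3, 0 to 1, 0 to 1, 0 to 0, 2 to 4 (main effect) and 0 to 0 (interaction). Calls over all genes moved too. In BRQ+IgG2a against IgG2a, 554 became 377 with no filter, 1093 with the T cell score and 2100 with limma voom. In BRQ+PD-1 against IgG2a, 627 became 4148 with the T cell score and 3544 with the macrophage, monocyte and dendritic cell score. Against PD-1, 808 became 2183 with the latter score and 2181 with limma voom. In the main effect, 2001 became 1379 with no filter, 4076 with the T cell score and 3763 with limma voom. The causes were not tested.

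Replicate numbers do not pair the tumours: same-numbered tumours of different groups had a median r of 0.00 between their deviations (36 pairs, 15 above 0.1), others 0.05, and 1 library correlated best with its own number. With the replicate block, 361 genes were called in BRQ+IgG2a against IgG2a (554 without it), 285 (627) in BRQ+PD-1 against IgG2a, 411 (808) in BRQ+PD-1 against PD-1 and 1412 (2001) in the main effect; counts of members with the block were 1, 0, 1 and 2. The block ended the calls of Eomes in BRQ+IgG2a against IgG2a (adjusted p = 0.113), Id2 in BRQ+PD-1 against IgG2a (0.56 ± 0.15, adjusted p = 0.0589) and Prdm1 in the main effect (0.60 ± 0.20, adjusted p = 0.0638). Depth limits Tbx21, Eomes and Batf, whose counts start at 6, 10 and 27.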
